A study of Homo sapiens with 30 samples.

Results

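The mRNAs described here encode proteins of the cadherin-catenin complex of the cell surface, and they were taken as 5 named genes: CTNNA1, CTNNB1, CTNND1, CDH2 and CDH11. They are 5 of 62750 genes counted. A peak was assigned to one of them when its centre lay inside the gene on the same strand (GRCh38, GENCODE), which gave 60 of the 48311 peaks in the 5 deposited lists. The lists come from iCLIP, in which ultraviolet light crosslinks a protein to the RNA it touches and sequencing marks the crosslinked positions. U-87 MG, an established human glioblastoma line, carried a doxycycline-inducible, myc-tagged and codon-optimised LARP6, delivered by lentivirus and selected as a transduced population. The variants were full-length LARP6 (FL), ΔNTR without the disordered N-terminal region, ΔLa-module without the folded La-module, ΔNTD without both, and ΔCTR without the C-terminal region. Parental cells without a transgene were the negative control. All 6 lines kept their own LARP6 gene, and per the labels cells were induced with doxycycline at 60 ng/mL for 24 h. Each of the 6 lines had 3 iCLIP samples, 18 in all, which were deposited as 1 list of peaks per variant, pooled over the replicates and with parental peaks removed. Each line also had 1 long paired-end library of total RNA, called PE150, and 1 short single-end library, called SE50, as input. The titles describe the SE50 libraries as small RNA and the PE150 libraries as long RNA.

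Classical cadherins are transmembrane proteins that bind cadherins of the neighbouring cell. Their cytoplasmic tails hold β-catenin and p120-catenin, and β-catenin recruits α-catenin, which links the complex to actin filaments. β-catenin that is not held at the membrane is degraded unless Wnt signalling is active, in which case it enters the nucleus and co-activates transcription with TCF/LEF factors. LARP6 belongs to the La-related family of RNA-binding proteins and is best known for its contact with collagen mRNAs.

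The sequences at the sites that carried most of the signal are given first, read 5′ to 3′ from GRCh38 on the strand of the gene. Capitals mark runs of at least 5 pyrimidines (C or T), and each line is a whole peak or the 25 nt around its centre. The CTNNA1 sites are shown because 1 of them held nearly all of the gene's score, and because ΔNTR had weak peaks around it. Of the 5 such ΔNTR peaks that overlap no FL peak, the 3 shown were chosen for a run of pyrimidines, and the other 2 have no such run around their centre. The first line below is the highest CTNNA1 peak of FL at chr5:138934168-138934189 (plus strand), the second its neighbour at chr5:138934198-138934224, and the next lines are 3 peaks of ΔNTR without an overlapping FL peak, centred 33, 175 and 222 nt after the stop codon, at chr5:138934110-138934134, chr5:138934252-138934276 and chr5:138934299-138934323.
CTNNA1 FL highest peak: aatacaacactgatactagatt
CTNNA1 FL second peak: aaatgggcagactgaaccagtccaggt
CTNNA1 ΔNTR, 33 nt after the stop codon: cccaCCCCTCggggCTCCTgaatat
CTNNA1 ΔNTR, 175 nt after the stop codon: gttgattaaaaatgCTTTTagaatg
CTNNA1 ΔNTR, 222 nt after the stop codon: TTTTTTgtatgcttaaataaaaata

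The first CTNNB1 line shows the centre of the long FL peak near the transcript end (chr3:41240289-41240313, plus strand). The second is the centre of the ΔNTR peak that overlapped its distal part and ran beyond it (chr3:41240341-41240365). Most of this second line lies past the end of the FL peak at chr3:41240345. The third is a T-rich site farther upstream (chr3:41240000-41240024). The CDH2 lines show the 3′UTR site found in 3 lists (chr18:27951603-27951627, minus strand) and the neighbouring 5′UTR peaks of FL (chr18:28177064-28177080) and ΔNTR (chr18:28177032-28177056).
CTNNB1 FL highest peak, centre: agggtaaatcagtaagaggtgttat
CTNNB1 ΔNTR highest peak, centre: agttgCCTTTTatcccaaagttgtt
CTNNB1 FL, 670 nt after the stop codon: TTTTTTTTTTTTgcagtaactgttt
CDH2 FL 3′UTR peak, centre: TTTTTCactaaaatcttaaaactta
CDH2 FL 5′UTR peak: ccgccgccgccgccgcc
CDH2 ΔNTR 5′UTR peak, centre: CCTCCggCTCTTCgctcggCCCCTC

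The members held 13 of the 14334 FL peaks, 26 of 17180 ΔNTR peaks and 20 of 15870 ΔCTR peaks. They held 1 of 636 peaks in the ΔLa-module list and 0 of 291 in the ΔNTD list. All peaks lay in CTNNA1, CTNNB1 and CDH2. Their order by summed score, the total of the deposited peak scores of a gene, read here as crosslink counts, was CTNNA1, CTNNB1 and CDH2 in each of the 3 lists with many peaks. The lists analysed here pool the replicates, so the values have no replicate spread and no test was run on them. Reads of single replicates were not analysed here. Intervals are 95% intervals of counting error only, and they rest on this reading of the score. List totals differed, the FL scores adding up to 102788, the ΔNTR scores to 92958 and the ΔCTR scores to 118751, so a gene's share of its list is given beside its raw score.

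**Figure D1:**
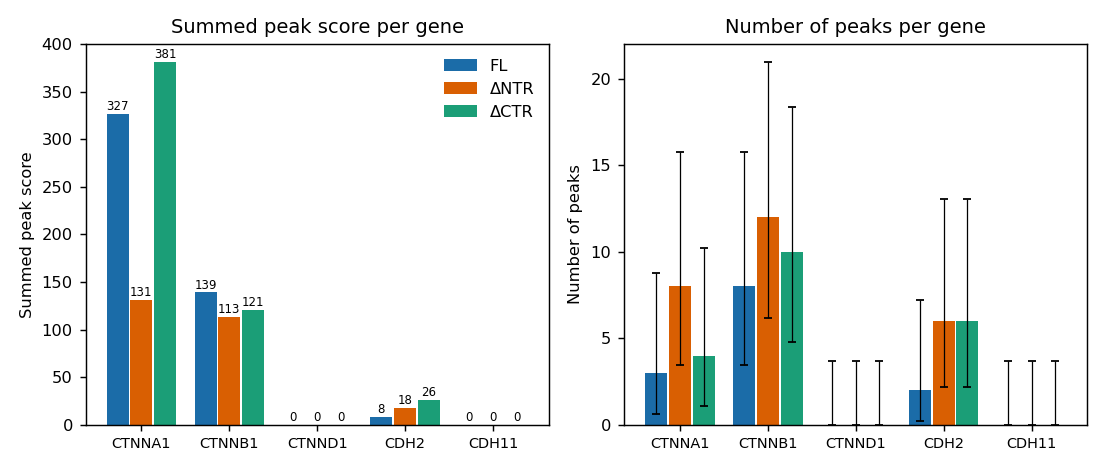
Left, summed peak score of each gene in the FL, ΔNTR and ΔCTR lists (1 pooled list each); right, number of peaks with exact 95% Poisson intervals. CTNNA1 is far above the other 4 genes in FL (327) and ΔCTR (381), and in ΔNTR (131) it is highest but close to CTNNB1. CTNNB1 lies between 113 and 139 in all 3 lists, and CTNND1 and CDH11 have no peak.

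CTNNA1 encodes αE-catenin, the actin-binding partner of β-catenin. The gene (ENSG00000044115) lies at chr5:138610967-138935034 on the plus strand. Its summed score was 327 with FL, 131 with ΔNTR and 381 with ΔCTR, and it had no peak with ΔLa-module or ΔNTD. FL and ΔCTR were close, and ΔNTR was far below both. The ΔNTR score was 0.401 times the FL score (exact interval, 0.325 to 0.492) and the ΔCTR score 1.17 times (1.00 to 1.35). Both ratios rest on the same FL list. As a share of its list, CTNNA1 took 0.318% with FL, 0.141% with ΔNTR and 0.321% with ΔCTR. On the log2 scale of shares the ΔNTR difference was -1.17 (-1.48 to -0.88), and 67 of the 803 genes whose FL and ΔNTR scores added up to 50 or more were lower. Of those 803 genes, 12.6% were at least 2-fold lower with ΔNTR. The ΔCTR difference was 0.01 (-0.20 to 0.23), against a median of -0.03 over 905 genes.

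A single site carried these values. FL had 3 peaks in CTNNA1, and the one at chr5:138934168-138934189 scored 305, which was 93.3% of the gene's score. It was 22 nt wide and lay in the 3′UTR, centred 90 nt after the stop codon of the MANE Select transcript, whose 3′UTR has 945 nt. It was the 6th highest of all 14334 FL peaks. No other gene with at least 3 peaks and a score of at least 100 had as large a part of its FL score in a single peak, out of 174 such genes with a median of 34.5%. The study chose this CTNNA1 region because its FL binding was strong and focused, with weaker contacts around it in ΔNTR. The place of CTNNA1 among genes therefore restates that choice in part and is a description only. ΔCTR had the same site at chr5:138934169-138934189 with a score of 355, or 93.2% of its total for the gene. ΔNTR had it at chr5:138934163-138934189 with a score of 97, or 74.0%, which was still the 25th highest of the 17180 ΔNTR peaks. At this site, ΔNTR scored 0.318 times FL (0.250 to 0.401), and ΔCTR 1.16 times (0.996 to 1.36). Across the 57 FL peaks with a score of at least 100, the median ratio was 0.425 for ΔNTR, with 7 peaks lower than CTNNA1, and 0.888 for ΔCTR, with 44 lower. The second site, centred 122 nt after the stop codon in FL, scored 18 with FL, 11 over 2 peaks with ΔNTR and 20 with ΔCTR, differences that counting error covers (ratios of 0.611, 0.261 to 1.37, and 1.11, 0.558 to 2.23).

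ΔNTR had more but weaker peaks around the CTNNA1 site. It had 8 peaks in the gene (exact Poisson interval, 3.45 to 15.8), against 3 in FL (0.619 to 8.77) and 4 in ΔCTR (1.09 to 10.2), and these intervals overlap. Of the 8, 3 overlapped an FL peak, and 5 overlapped none but lay within 100 nt of one. Such neighbouring peaks made up 16.5% of the whole ΔNTR list and 14.2% of the ΔCTR list. Their scores were 4, 4, 3, 6 and 6, a sum of 23 or 17.6% of the ΔNTR score of the gene. The ΔCTR list had 1 neighbouring peak and 1 farther away, each with a score of 3 and together 1.57% of the score. CTNNA1 was not extreme in this number: over the 192 genes that scored at least 100 with FL, the median was 4 neighbouring peaks in ΔNTR, and 67 genes had more than 5. In all, the FL peaks within 200 nt of the main site spanned 57 nt, those of ΔCTR 202 nt and those of ΔNTR 256 nt, from chr5:138934073, just before the stop codon, to chr5:138934328. Outside this stretch lay the ΔCTR peak at chr5:138934344-138934370, with a score of 3, and an FL peak in the CDS at chr5:138929314-138929341, with a score of 4 and no counterpart in ΔNTR or ΔCTR.

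**Figure D2:**
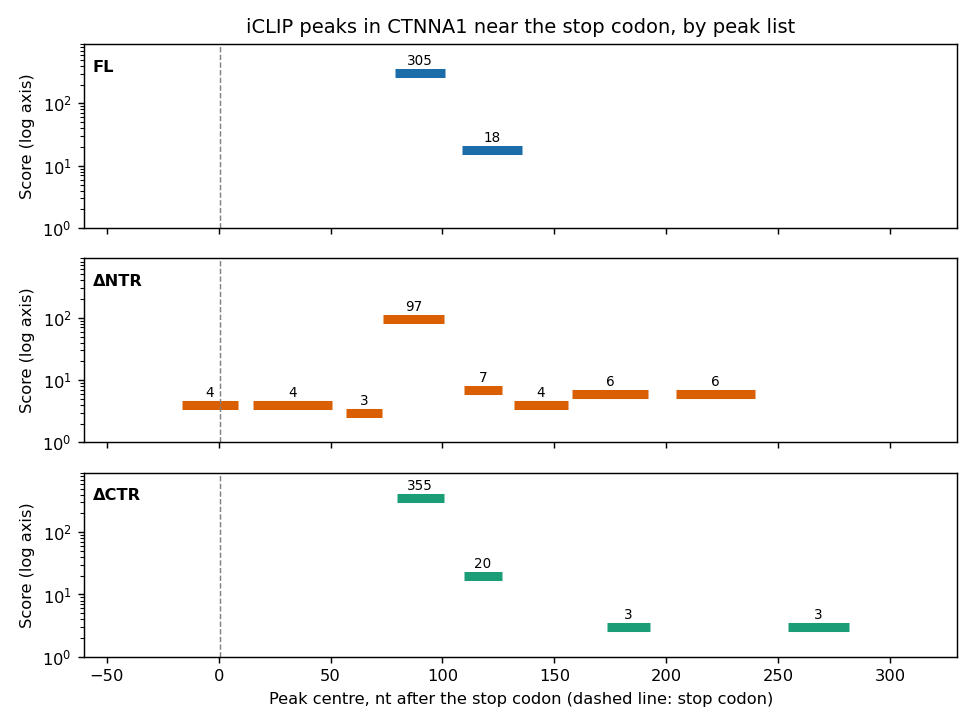
Each bar is a CTNNA1 peak, drawn over its width by distance of its centre from the stop codon (nt) and at the height of its score (log axis), in the FL, ΔNTR and ΔCTR lists. All 3 lists share the main peak near 90 nt (305, 97 and 355), and ΔNTR adds low peaks with scores of 3 to 6 on both sides.

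The CTNNA1 scores were also set against genes of like abundance. CTNNA1 had 11965 PE150 counts in the FL line, and of 399 genes within 1.5-fold of that count, 93.5% had an FL peak but 2 scored higher than CTNNA1. The median score of these genes was 28. In ΔNTR, 94% of 402 such genes had a peak, and 27 scored higher. In ΔCTR, 93.2% of 413 had a peak, and 1 scored higher. Divided by the input of its own line, the score per 1000 PE150 counts was 27.3 with FL, 12.7 with ΔNTR and 34.0 with ΔCTR, where the medians of all genes with a peak and at least 1000 counts were 2.76, 3.09 and 3.30. In the ΔLa-module list, 19.7% of the genes in the same band had a peak and CTNNA1 had none (0 peaks, which allows up to 3.69).

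CTNNB1 encodes β-catenin, which joins cadherins to α-catenin and also acts in Wnt signalling. The gene (ENSG00000168036) lies at chr3:41194741-41260096 on the plus strand. Its summed score was 139 with FL, 113 with ΔNTR and 121 with ΔCTR, then 3 with ΔLa-module and 0 with ΔNTD. By raw score, the 3 lists with many peaks were close to one another. The ratio to FL was 0.813 for ΔNTR (0.629 to 1.05) and 0.871 for ΔCTR (0.677 to 1.12), and both intervals include 1. By share of the list, the log2 differences were -0.15 (-0.52 to 0.21) and -0.41 (-0.77 to -0.05). The ΔCTR interval by share thus does not include 0, while by raw score it includes a ratio of 1. Of 803 genes, 335 had a lower ΔNTR share ratio than CTNNB1, and of 905 genes, 224 had a lower ΔCTR one.

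CTNNB1 had 8 FL peaks (3.45 to 15.8), 12 ΔNTR peaks (6.20 to 21.0) and 10 ΔCTR peaks (4.80 to 18.4). Of the FL peaks, 2 lay in the CDS and 6 in the 3′UTR, of the ΔNTR peaks 6 and 6, and of the ΔCTR peaks 3 and 7. The 3′UTR peaks took 133 of the FL score of 139, 92 of the ΔNTR score of 113 and 112 of the ΔCTR score of 121. The CDS peaks were thus low in every list, with scores of 3 to 5. The highest FL peak, at chr3:41240256-41240345, scored 96, or 69.1% of the gene's score, and ranked 63rd in the list. It was centred 959 nt after the stop codon of a 3′UTR of 1101 nt, near the opposite end of the UTR from the CTNNA1 site. For comparison, 3′UTR peaks of the FL list had a median distance of 848 nt, and 15.0% were within 200 nt of the stop codon.

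This CTNNB1 site was drawn differently in each list. The FL peak was 90 nt wide, which only 57 of the 14334 FL peaks reached, against a median width of 22 nt. ΔNTR had 2 peaks that overlapped it, of 39 nt with a score of 23 and of 123 nt with a score of 44. The wider one shared 54 nt with the FL peak and ran on to chr3:41240414, past the FL end at chr3:41240345. ΔCTR had 2 peaks of 39 and 36 nt with scores of 40 and 42. Summed over the site, the scores were 96, 67 and 82. The ΔNTR ratio was 0.698 (0.503 to 0.963) and the ΔCTR ratio 0.854 (0.628 to 1.16), both of raw scores not scaled to the list totals. Across the 210 FL peaks with a score of at least 50, the median ratio was 0.477 for ΔNTR, with 159 peaks lower than CTNNB1. For ΔCTR it was 0.962, with 78 lower. Per nucleotide the highest CTNNB1 peak of FL had a score of 1.07, against 13.9 at the CTNNA1 site. Farther upstream, 3 sites were shared by all 3 lists: at 603 nt with scores of 8 (FL), 5 (ΔNTR) and 3 (ΔCTR), at 695 nt with 11, 5 and 8, and at 792 nt with 8, 12 and 13. At the last of them, the ΔCTR peak was centred at 750 nt. It overlapped the FL peak by only 1 nt and the ΔNTR peak by 6 nt. The intervals of the 3 sites all include a ratio of 1.

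**Figure D3:**
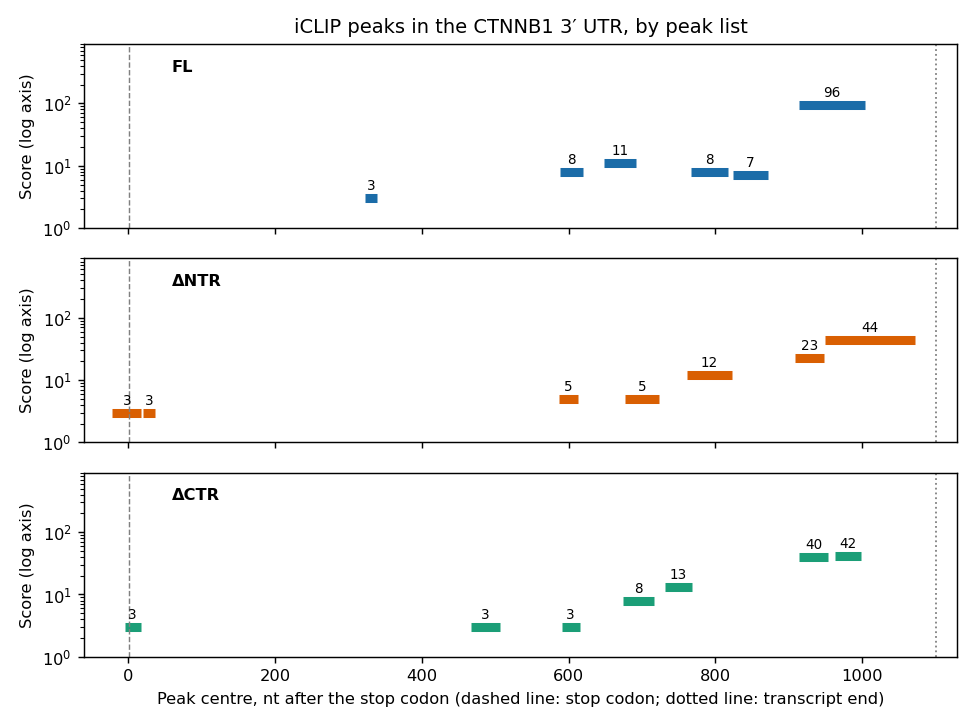
CTNNB1 peaks by distance of the peak centre from the stop codon (nt), each drawn over its width at the height of its score (log axis), in the FL, ΔNTR and ΔCTR lists. The main signal lies around 959 nt, close to the transcript end, as a single peak in FL (96) and as 2 peaks in ΔNTR (23 and 44) and ΔCTR (40 and 42).

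Outside the shared sites, CTNNB1 peaks were mostly single peaks at or near the lowest score. Of the 12 ΔNTR peaks of CTNNB1, 6 lay more than 100 nt from any FL peak, with a summed score of 19. In the whole ΔNTR list, 9175 of 17180 peaks did. Of the 10 ΔCTR peaks, 3 lay that far, with a sum of 9, as did 8165 of 15870 in the whole ΔCTR list. One site at the stop codon, at chr3:41239320-41239359, had a score of 3 in both ΔNTR and ΔCTR and no FL peak. The ΔLa-module list had a single CTNNB1 peak, in the CDS at chr3:41233687-41233703, with the lowest score of 3. Of 400 genes within 1.5-fold of its PE150 count, 20% had a ΔLa-module peak. Score per 1000 PE150 counts was 11.0 with FL, 10.3 with ΔNTR and 9.86 with ΔCTR. At this abundance, 32 of 373 genes scored higher than CTNNB1 with FL, where 93.3% of them had a peak. With ΔNTR it was 47 of 382 (94.8% with a peak), and with ΔCTR 57 of 371 (94.1%).

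CDH2 encodes N-cadherin, the classical cadherin of neural and mesenchymal cells. The gene (ENSG00000170558) lies at chr18:27932879-28177946 on the minus strand. Its summed score was 8 with FL, 18 with ΔNTR and 26 with ΔCTR, and it had no peak in the ΔLa-module and ΔNTD lists. Both deletions were above FL, by few counts. The ratio to FL was 2.25 for ΔNTR (0.931 to 5.98) and 3.25 for ΔCTR (1.43 to 8.31). The interval of the ΔNTR ratio includes 1. As a share of its list, CDH2 took 0.00778% with FL, 0.0194% with ΔNTR and 0.0219% with ΔCTR. On the log2 scale of shares the differences from FL were 1.22 for ΔNTR (0.042 to 2.73) and 1.38 for ΔCTR (0.31 to 2.85), so that by share the ΔNTR interval does not include 0, while by raw score it includes a ratio of 1. There were 2 FL, 6 ΔNTR and 6 ΔCTR peaks, and all 6 ΔNTR peaks had the lowest score of 3, so that without peaks of that score ΔNTR had none and the order of ΔNTR and FL reversed. Of 2096 genes of like PE150 count in the FL line, 67.7% had an FL peak, as did 72% of 1990 with ΔNTR and 73.2% of 2083 with ΔCTR.

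A single CDH2 site was present in all 3 lists, in the 3′UTR at chr18:27951589-27951630, about 544 nt after the stop codon of a 3′UTR of 1187 nt. It scored 5 with FL, 3 with ΔNTR and 4 with ΔCTR. ΔCTR had further 3′UTR peaks at 578 nt (score 7) and 673 nt (score 5), and ΔNTR one at 841 nt (score 3). In the 5′UTR, each list had 1 peak with a score of 3. The FL peak covered a run of CCG repeats at chr18:28177064-28177080, and the ΔNTR peak (chr18:28177026-28177062) and the ΔCTR peak (chr18:28177038-28177054) lay side by side with it, downstream on the transcript, without overlapping it. ΔNTR had 3 CDS peaks and ΔCTR 2, none of which overlapped.

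CTNND1 and CDH11 had no peak in any of the 5 lists, which allows up to 3.69 peaks per list. CTNND1 encodes p120-catenin, which stabilises cadherins at the membrane, and CDH11 encodes cadherin-11, a mesenchymal cadherin. CTNND1 (ENSG00000198561) lies at chr11:57753243-57819546 on the plus strand and CDH11 (ENSG00000140937) at chr16:64943753-65126112 on the minus strand. CDH11 had 8 PE150 counts in parental cells, 4 in the FL line, 5 in the ΔNTR line and 0 in the ΔCTR line, with 3 in ΔLa-module and 1 in ΔNTD cells, and of 45551 genes with at most 10 counts in FL, 0.476% had an FL peak. CTNND1 had 324 to 397 counts, but these do not measure its mRNA: 2 read-through genes annotated over it share all of its coding sequence and 78.6% of its 6670 nt MANE Select transcript, and the counting used leaves out reads that fit more than 1 gene. No comparison with genes of like abundance was therefore made for CTNND1.

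Member peaks of the 3 lists merged into 38 sites, of which 7 were in all 3 lists (18.4%), 4 in 2 (10.5%) and 27 in 1 (71.1%). Merged the same way, all peaks of these lists gave 34120 sites, with 9.78% in 3 lists, 13.4% in 2 and 76.8% in 1. The 7 member sites in all 3 lists were 2 in CTNNA1, 4 in CTNNB1 and 1 in CDH2. Any overlap of at least 1 nt counted, and the CTNNB1 site at 792 nt joined FL and ΔCTR peaks that overlapped by 1 nt. A ΔNTR peak overlapped 7 of the 13 FL peaks of the members (53.8%, Wilson interval 29.1 to 76.8%), where 35.3% of all FL peaks were overlapped. A ΔCTR peak also overlapped 7 (53.8%), where 37.9% of all were. Of the 4 member peaks at a score of 3 none was overlapped by either list. Of all FL peaks at that score, ΔNTR overlapped 17.0% and ΔCTR 18.1%. Of the 5 member peaks with scores of 4 to 9, each list overlapped 3, where the shares of all such FL peaks were 43.5 and 47.7%. All 4 with a score of 10 or more were overlapped by both, as were most FL peaks of such scores in other genes (87.8 and 93.0% at scores of 10 to 99).

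The sequence around the 3′UTR sites of the members was not rich in pyrimidines. In the 31 nt around the centre, the median share of C and T was 48.4% for the 9 member 3′UTR peaks of FL, and likewise for the 15 of ΔNTR and the 14 of ΔCTR, against 54.8% for all 3′UTR peaks in each list. A run of at least 5 pyrimidines was present around 3 of these 9 FL peaks, 7 of the 15 ΔNTR peaks and 7 of the 14 ΔCTR peaks, compared with 60.6, 60.9 and 58.6% of all 3′UTR peaks. For member CDS peaks, the median share was 54.8% with FL, 48.4% with ΔNTR and 45.2% with ΔCTR, against 48.4, 51.6 and 48.4% for all CDS peaks. The CDH2 5′UTR peaks had 74.2% (FL), 83.9% (ΔNTR) and 80.6% (ΔCTR). Neither FL 3′UTR peak of CTNNA1 had such a run, as the first 2 sequences above show, while 4 of its 7 ΔNTR 3′UTR peaks had one. These 4 were low peaks with scores of 4 to 6, and the 2 highest ΔNTR peaks had none. In CTNNB1, 2 of 6 FL 3′UTR peaks had a run, both at the upstream T-rich sites, and the 90 nt peak had none at its centre. These are descriptions of few peaks, and neighbouring peaks share sequence.

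Input RNA of the members was nearly level over the 6 lines. Levels are CPM, the count of a gene relative to the TMM-scaled library total. CTNNA1 had 417 CPM in parental cells, 426 in the FL line, 413 in the ΔNTR line and 413 in the ΔCTR line, while ΔLa-module cells had 418 and ΔNTD cells 445. CTNNB1 had 473 CPM in parental cells, 451 in the FL line, 440 in the ΔNTR line and 453 in the ΔCTR line, while ΔLa-module cells had 421 and ΔNTD cells 457. CTNNB1 was thus highest in parental cells, and CTNNA1 in ΔNTD. CDH2 had 104 CPM in parental cells and 105 to 117 in the variant lines, and CTNND1 had 12.2 to 13.9 over the 6 lines. Relative to parental cells, no member other than CDH11, which was under the filter, passed 0.32 on the log2 scale, the threshold used, in either direction in any line. The log2 differences, on the scale of CPM plus 1, ran from -0.01 to 0.10 for CTNNA1, from -0.17 to -0.05 for CTNNB1, from -0.10 to 0.07 for CTNND1 and from 0.01 to 0.17 for CDH2. Among 14057 genes, 4.35% passed this threshold upwards and 3.93% downwards in the FL line, and 12.3 and 6.87% in the ΔNTR line. The 5 comparisons share the parental library, and with 1 library per line none could be tested. These are bulk libraries, in which fewer cells holding an mRNA and less of it per cell cannot be told apart. Beside the CTNNA1 score ratio of 0.401 between ΔNTR and FL, its input was 413 against 426 CPM. Per kilobase of exon, CTNNA1 (46.8 to 50.4 CPM) and CTNNB1 (35.8 to 40.2) were above CDH2 (12.1 to 13.6).

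**Figure D4:**
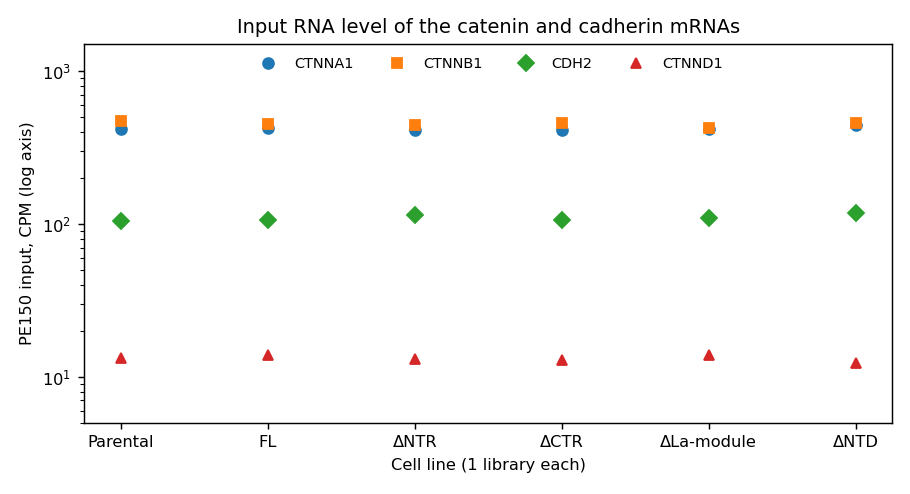
PE150 input level (CPM, log axis) of CTNNA1, CTNNB1, CDH2 and CTNND1 in the 6 lines, 1 library per point and no error available. The points of each gene are nearly level, with CTNNA1 and CTNNB1 at 413 to 473 CPM, and CTNND1 lowest at 12.2 to 13.9, a count without the reads it shares with overlapping genes.

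The labelled cell type was checked against its markers. CDH1, the epithelial cadherin, had 0 to 2 PE150 counts over the 6 lines, and the other epithelial markers EPCAM, KRT19 and ESRP1 had 37 to 67, 1 to 7 and 0 to 3, while the mesenchymal markers VIM (194113 to 222278), FN1 (120292 to 145972) and CD44 (52031 to 64266) were high. The glial markers GFAP (0 to 6), SOX2 (0 to 1) and S100B (0 to 3) were near 0 in this line, OLIG2 had 41 to 70, and NES, a marker of neural progenitors, had 1299 to 1653. Of the neuronal markers, SNAP25 had 1573 to 1719 counts, SYT1 201 to 265 and RBFOX3 0 to 4. The endothelial markers PECAM1, VWF and CDH5 had 28 to 65, 6 to 19 and 0 to 6, and the leukocyte markers PTPRC and CD14 had 1 to 2 and 0 to 4.

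Peaks were also counted in 60 further cadherins, catenins, junction partners and Wnt pathway genes, of which 22 had at least 1000 PE150 counts in every line. Of these, 18 had an FL peak, 21 a ΔNTR peak, 20 a ΔCTR peak, 3 a ΔLa-module peak and 1 a ΔNTD peak. Among all genes of at least 1000 counts in the line concerned, the shares with a peak were 63.1, 67.1, 67.8, 6.71 and 3.69%. These shares are not matched for abundance, and several listed genes are abundant. Among genes within 1.5-fold of the CTNNA1 count, 93.5% had an FL peak and 19.7% a ΔLa-module peak. The highest FL scores were those of junction partners. ACTN4, an actin crosslinker, scored 343 with FL, 297 with ΔNTR and 346 with ΔCTR, and VCL (vinculin), which binds α-catenin, scored 118, 85 and 128. ACTN1 scored 78, 81 and 111. CTNNAL1, an α-catenin relative, scored 36, 29 and 59, and CDH13, a cadherin with a lipid anchor in place of a cytoplasmic tail, scored 29, 33 and 26. None of these 5 had a ΔNTR score as far below its FL score as CTNNA1. PTPN1, a listed gene with low scores of 10 with FL and 3 with ΔNTR, had a log2 share difference of -1.31, against -1.17 for CTNNA1. APC, a scaffold of the complex that degrades β-catenin, had 2559 to 3557 counts and no peak in any list. TCF7, a partner of nuclear β-catenin, had no FL or ΔCTR peak and 3 ΔNTR peaks with a summed score of 11.

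In the input, the 43 listed genes above the filter were set against the same threshold of 0.32 relative to parental cells. The FL line had 1 higher and 0 lower (4.35 and 3.93% of all genes), and the ΔNTR line 6 and 1 (12.3 and 6.87%). The ΔCTR line had 2 and 2 (5.85 and 4.56% of all genes), the ΔLa-module line 3 and 4 (7.83 and 5.9%), and the ΔNTD line 2 and 4 (7.51 and 7.99%). The median log2 difference lay between 0.01 and 0.10 in the 5 lines. For TCF7 the log2 difference was -0.40 with ΔCTR, -0.48 with ΔLa-module and -0.49 with ΔNTD, and -0.25 with FL and -0.14 with ΔNTR, all against the same parental library.

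Out of 725 other genes that scored at least 30 with FL, those whose shares of the 3 lists were closest to those of CTNNA1 were IPO5, YWHAG and G3BP1, at Euclidean distances of 0.448, 0.516 and 0.554 in log2 units over the 3 lists. IPO5 scored 260 with FL, 151 with ΔNTR and 319 with ΔCTR. YWHAG scored 271, 180 and 354, and G3BP1 scored 239, 122 and 301. All of them were lower in ΔNTR than in the other lists, but less so than CTNNA1. As they were chosen for shares like those of CTNNA1, their lower ΔNTR scores restate that choice. The closest to CTNNB1 were HMGA1 (141, 108 and 113), EIF5 (134, 119 and 104) and ATP5F1B (119, 109 and 131), at 0.110, 0.215 and 0.237.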

How the data were processed

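The data were 18 iCLIP samples, deposited as 5 pooled peak lists, and 12 input libraries of U-87 MG cells, grouped by their labels. Per the methods, the authors demultiplexed iCLIP reads with Ultraplex, trimmed them with Trim Galore, removed rRNA and tRNA reads with Bowtie 2, aligned with STAR to GRCh38.p13 with GENCODE annotation, removed PCR duplicates with UMI-tools and called peaks with Clippy. The trimming, rRNA removal, alignment and duplicate removal of iCLIP reads ran on a web server, with no tool version stated. They merged the peaks of 3 replicates, summed the scores and subtracted parental peaks with bedtools 2.30.0. The deposited score is read here as the summed crosslink count, at least 3 and not scaled to depth, and the ratio intervals rest on this reading. The depth of the iCLIP libraries is unknown here. Input reads were trimmed with Trim Galore 0.6.10 and aligned with STAR 2.7.10b, and the deposited input values are raw counts per gene from STAR. The reverse column was used for PE150 (25027075 to 28692476 counts in genes) and the forward column for SE50 (6181270 to 10307756).

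Here, peaks were assigned with bedtools 2.31.1 and GENCODE release 44, a later release on the same build, in the order CDS, 5′UTR, 3′UTR, ncRNA and intron. Identifiers were matched without version, 62625 of 62750. PE150 counts were scaled by TMM (edgeR 4.0.16), with a pseudocount of 1 on CPM and a minimum mean of 1 CPM, and score shares had a pseudocount of 1. Intervals of 95% are exact Poisson for counts of peaks, Wilson for shares and exact binomial for ratios, and cover counting error only, since PCR copies are not known for the input. Scripts were tested on simulated data. Named genes were the 5 members, listed genes with at least 1000 counts in every line and the 3 nearest genes per member with an FL score of at least 30; markers came from their own list. Members and lists were chosen with earlier results of these data known. Alternatives were other scalings, filters, strands, overlaps and distances. Single replicates of the iCLIP were not analysed here.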

Additional observations from a re-analysis of the deposited data

How the results depend on the processing

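Of 217 alternative values, 180 stayed, 36 moved and 1 reversed. Those that stayed were within the counting interval or within 1.5 times the count of the main value. For the 3 pyrimidine shares the bound was the standard deviation across peaks. The input values without the filter on low counts equal the main values by construction and are among those that stayed. Only a score ratio whose main interval excluded no change could be called reversed. Changes of sign elsewhere, including all input values, were counted as stayed or moved. Without peaks of score 3, the members kept 14 ΔNTR peaks, 10 ΔCTR peaks (9 in the 3′UTR) and 0 ΔLa-module peaks. CTNNA1 then had 2 ΔCTR peaks, CTNNB1 had 5 FL, 7 ΔNTR and 4 ΔCTR peaks, and CDH2 had 1 FL and 0 ΔNTR peaks. The log2 share ratio of CDH2 in ΔNTR over FL turned from 1.22 to -2.29 under that filter, since none of its peaks was left. Within 50 nt in place of 100 nt, the neighbouring peaks were 3 for CTNNA1 and 0 for CTNNB1 in ΔNTR and 1 for CTNNB1 in ΔCTR, and within 200 nt they were 2 for CTNNA1 in ΔCTR.

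Corrected by SE50 input, the log2 share ratio was -0.83 for CTNNA1 and 0.23 for CTNNB1 in ΔNTR and 0.22 for CDH2 in ΔCTR. The SE50 libraries held 9 to 14 counts of CTNNA1, 18 to 41 of CTNNB1, 0 to 6 of CTNND1 and 0 to 11 of CDH2, too few to measure these mRNAs, and their titles describe them as small RNA. Their log2 differences from parental cells, in the order FL, ΔNTR, ΔCTR, ΔLa-module and ΔNTD, were 0.56, 0.22, 0.61, 0.54 and -0.080 for CTNNA1, -0.20, -0.58, -0.37, -0.44 and -0.41 for CTNNB1 and -0.21, -0.39, 0.94, -0.39 and 0.48 for CDH2. For CTNND1 they were 0.36 (ΔNTR), 0.60 (ΔCTR), -0.27 (ΔLa-module) and 0.27 (ΔNTD). No paired analysis was possible because the lists analysed here pool the iCLIP replicates, single-replicate reads were not analysed here, and each line had 1 input library per protocol. Leaving out single replicates was not run, since the lists pool them.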
